A study of Rattus norvegicus with 18 samples.

Results

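The transcripts of the mitochondrial ribosome's own proteins were examined in NRK-52E cells, an established line of rat kidney proximal tubule epithelium (genotype Osborne-Mendel), exposed to the fungicide chlorothalonil or to its solvent. Members were the genes whose platform symbol begins with Mrpl (large subunit) or Mrps (small subunit) followed by a digit. Of 97 probe sets with such a symbol alone, the brightest per gene by mean over all arrays was taken, and it was kept if it exceeded log2 4, the level taken as background, in 3 or more arrays. This gave 73 genes, 46 of the large and 27 of the small subunit, among 9146 genes tested in the same way. The 6 groups were chlorothalonil (CHL) at 1.1 µM in 0.1% DMSO for 6, 24 or 72 h, and DMSO at 0.1% alone for the same times, with 3 arrays in each group and 18 in all. Per the labels the dose was the IC10 at 72 h, cells were confluent at exposure, and the arrays of a group are biological replicates. One cell line and a single dose were used throughout, and p-values measure the spread between these arrays. The members just inside the filter were the dimmest, Mrpl38 and Mrpl46, with means over the arrays of 6.97 and 7.92. No gene fell outside it, since all 73 lay above log2 4 on every array, although 8 further probe sets of these genes did not pass.

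Mitochondrial ribosomes translate the few proteins encoded in mitochondrial DNA, all of them subunits of the respiratory chain and ATP synthase. Their ribosomal RNAs come from mitochondrial DNA, but every one of their proteins is encoded in the nucleus, made in the cytosol and imported. Some are relatives of bacterial ribosomal proteins and the others were added in the mitochondrial lineage. In the kidney, proximal tubule cells are rich in mitochondria and depend on oxidative metabolism for solute transport.

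Expression values were log2 values on a scale that normalizes each array against the others, so every change here is relative to the other transcripts on the array. Spiked poly-A control transcripts lay at 10.6 to 11.0 in CHL arrays and 10.1 to 10.3 in DMSO arrays at 6 h, at 10.8 to 11.4 and 9.17 to 10.5 at 24 h, and at 10.7 to 11.1 and 10.1 to 10.3 at 72 h. Scaling the arrays to these controls moved the median change of all genes to −0.61 at 6 h, −1.003 at 24 h and −0.58 at 72 h, and it turned the median change of the 73 members to −0.41, −0.48 and −0.29. The value at 24 h rests largely on DMSO replicate 1, whose controls were dimmest, since without that array it was −0.04. The distance of the members' median from that of all genes was 0.20, 0.52 and 0.29. It is the same on both scales by construction, since the scaling shifts all genes of an array alike. On that other scale 9, 12 and 10 of the 73 members lay above 0. Why the controls differ between CHL and DMSO arrays was not tested. Fewer cells and less RNA per cell cannot be told apart in such bulk samples. Replicate arrays correlated at 0.992 to 0.998. Of 15 markers of proximal tubule, Aqp1, Ggt1 and Mme passed the filter, and the other 12, among them Lrp2, Cubn and Hnf4a, were never above log2 4. Of 9 fibroblast and mesenchymal markers 5 passed (Vim, Col1a1, Col1a2, Col3a1 and Acta2), while Pdgfra, Dcn and Lum were never above log2 4. The log2 of the summed level of those 5 lay at 15.7 in every CHL array against 15.4 to 15.6 in DMSO arrays at 6 h, at 15.4 against 15.5 at 24 h, and at 15.3 against 15.6 to 15.7 at 72 h. Within that list the genes went opposite ways at 72 h, with Vim (0.41) and Acta2 (0.80) higher and Col1a1 (−1.28), Col1a2 (−1.79) and Col3a1 (−3.24) lower. The 3 proximal tubule markers summed to 9.11 to 9.42 in CHL against 8.88 to 8.91 in DMSO arrays at 6 h, to 8.58 to 8.93 against 7.71 to 7.90 at 24 h, and to 6.16 to 6.57 against 7.53 to 7.81 at 72 h. These markers also went opposite ways. At 24 h Ggt1 (1.88) was higher, Mme (−1.84) lower and Aqp1 (−0.04) not called. At 72 h Ggt1 (2.21) was higher, and Aqp1 (−4.44) and Mme (−1.11) were lower. Of 11 epithelial junction and keratin markers 4 passed, and they summed to 14.7 to 14.8 against 14.7 to 14.9, 14.8 to 15.0 against 14.4 to 14.5, and 14.2 to 14.4 against 14.3 to 14.4. Within these, Krt7 (2.73) and Ocln (1.24) were higher and Tjp1 (−0.44) lower at 6 h, with Krt8 (0.10) not called. At 24 h Krt8 (0.81) and Ocln (1.33) were higher and Tjp1 (−0.26) lower, with Krt7 (0.24) not called. The part of these markers in the results was not tested.

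Transcripts of mitochondrial ribosomal proteins were on the whole more abundant in CHL than in DMSO cells at each time on the deposited scale, most of all at 24 h, and their median lay below 0 when arrays were scaled to the poly-A controls. The large subunit averaged 10.73 ± 0.02 in CHL and 10.53 ± 0.01 in DMSO arrays at 6 h, 10.77 ± 0.06 and 10.11 ± 0.05 at 24 h, and 10.42 ± 0.08 and 10.07 ± 0.05 at 72 h (log2, SD, n = 3 each). The small subunit averaged 10.77 ± 0.01 and 10.54 ± 0.01 at 6 h, 10.78 ± 0.06 and 10.12 ± 0.07 at 24 h, and 10.38 ± 0.07 and 10.01 ± 0.05 at 72 h. In both subunits the 3 CHL arrays lay above the 3 DMSO arrays at every time. The large subunit's mean minus the small subunit's lay between −0.06 and 0.09 in all 18 arrays. The difference of that quantity between CHL and DMSO was −0.03 at 6 h (pooled SD 0.01), −0.01 at 24 h (0.02) and −0.02 at 72 h (0.02). With members placed by structure it was −0.08 at 6 h (0.01), and without probe sets that may bind related transcripts it was −0.08 at 6 h and turned to 0.01 at 72 h.

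**Figure D1:**
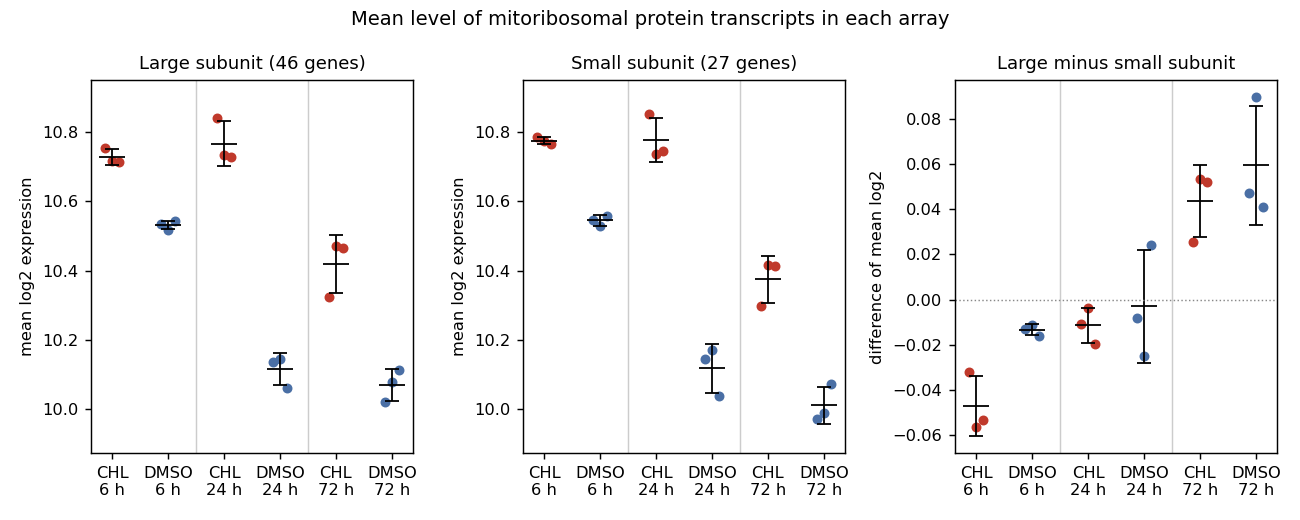
Mean log2 level of the 46 large-subunit (left) and 27 small-subunit (middle) transcripts and their difference (right) in each of the 18 arrays, CHL left of DMSO at each time, with the mean and SD of 3 arrays. On the deposited scale plotted here every CHL array lies above the DMSO arrays of its time in both subunits, by most at 24 h, while the difference between the subunits stays between −0.06 and 0.09. Scaled to the poly-A controls, the members' median change is below 0 at each time.

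Gene by gene, 37 of the 73 members were higher and 5 lower in CHL cells at 6 h, 64 were higher and 1 lower at 24 h, and 49 were higher and 4 lower at 72 h (limma, Benjamini-Hochberg adjusted p below 0.05 over 9146 genes). Among all genes tested 27.8% were higher and 31.8% lower at 6 h, 39.1% and 31.1% at 24 h, and 37.2% and 27% at 72 h. The members' median log2 change was 0.19 at 6 h, 0.58 at 24 h and 0.36 at 72 h, beside −0.01, 0.06 and 0.07 over all genes. The 3 CHL arrays all lay above the 3 DMSO arrays for 45, 66 and 51 members at the 3 times, against 32.1%, 40.4% and 40.1% of all genes, and all below them for 7, 2 and 6 members, against 34.7%, 32.5% and 30.5%. The lowest change was −0.89 at 6 h, −0.21 at 24 h and −0.70 at 72 h, and the highest was 0.85, 2.07 and 1.44. A called increase of at least 1 log2 unit was seen for 12 members at 24 h, beside 10.6% of all genes. These counts are on the deposited scale. After scaling to the poly-A controls, 0, 2 and 1 members were called higher at the 3 times (2.53%, 2.79% and 3.41% of all genes), and 5, 17 and 7 lower (36.7%, 67.1% and 35.5% of all genes).

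**Figure D2:**
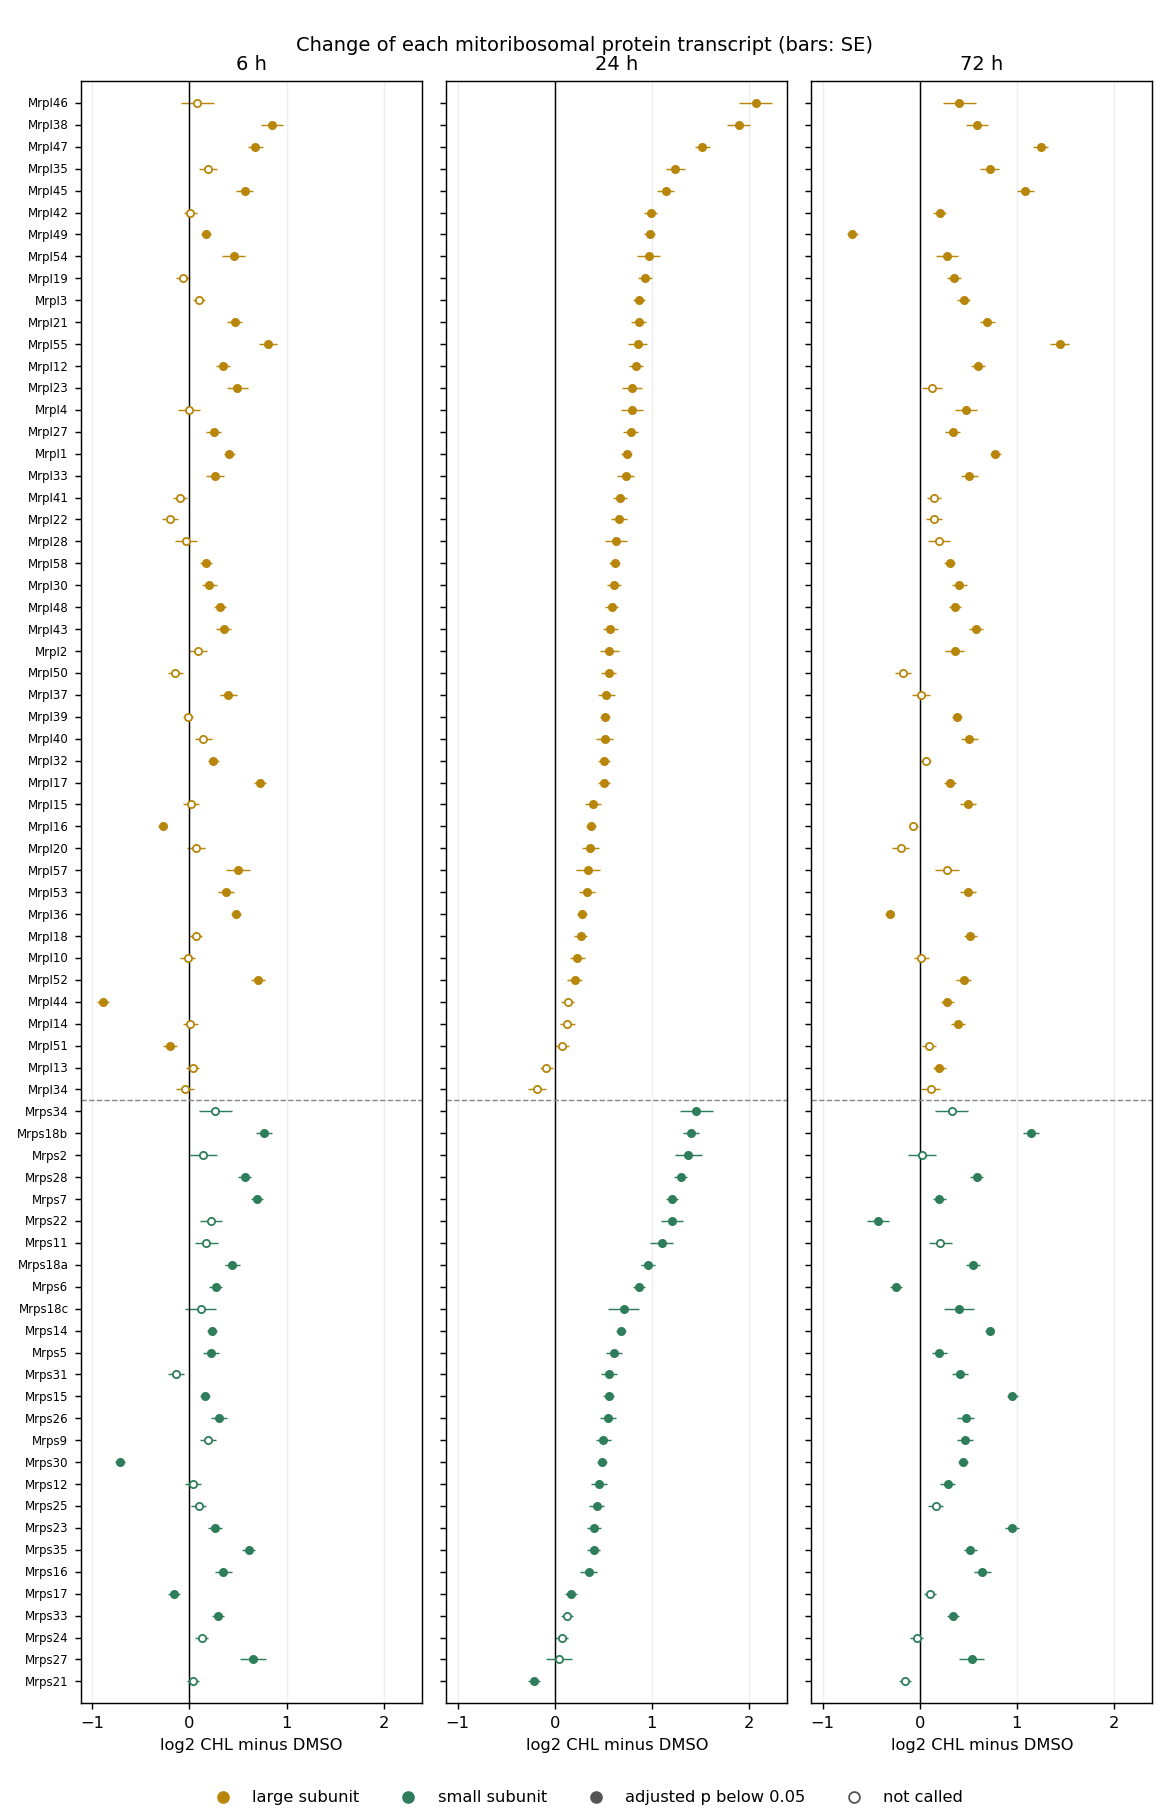
Log2 change, CHL minus DMSO, of each of the 73 members at 6, 24 and 72 h on the deposited scale, with its SE, ordered by the change at 24 h within the large subunit (top) and the small subunit (bottom). Filled points have an adjusted p below 0.05. At 24 h 64 members are filled to the right of 0 and Mrps21 to the left, while after scaling to the poly-A controls 12 of 73 lie above 0.

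At 6 h the members moved in both directions. The 5 highest increases among members whose arrays did not overlap were those of Mrpl38 (0.85), Mrpl55 (0.81), Mrps18b (0.77), Mrpl17 (0.73) and Mrpl52 (0.71). Mrpl55, a large-subunit protein, had log2 values of 9.61, 9.50 and 9.43 in CHL arrays, against 8.73, 8.75 and 8.63 in DMSO arrays. Its treated arrays all lay above the solvent arrays, 1.75-fold higher on average (SE 0.10 on the log2 scale, adjusted p = 3.53e-06). Mrpl17, the counterpart of bacterial L17, read 11.96, 12.04 and 11.98 in CHL and 11.20, 11.35 and 11.25 in DMSO arrays, a separation of 0.73 with no overlap (adjusted p = 1.38e-07).

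A minority of 5 members went the other way at 6 h, namely Mrpl44, Mrps30, Mrpl16, Mrpl51 and Mrps17. Mrpl44, a large-subunit protein with a ribonuclease III-like fold, had values of 8.93, 8.77 and 8.72 in CHL arrays, against 9.71, 9.78 and 9.61 in DMSO arrays, and was 1.85-fold lower (log2 −0.89, SE 0.07, adjusted p = 3.83e-08). Mrps30, which carries a small-subunit name but sits in the large subunit of the mammalian structure, read 10.97, 10.92 and 11.08 in CHL and 11.70, 11.74 and 11.69 in DMSO arrays. It was 1.64-fold lower, with no overlap (log2 −0.72, SE 0.05, adjusted p = 2.87e-08). Mrpl16, the counterpart of bacterial L16 near the peptidyl transferase centre, was lower by less (log2 −0.28, adjusted p = 0.000201). The changes of Mrpl51 (−0.20, adjusted p = 0.032) and Mrps17 (−0.16, adjusted p = 0.033) each missed the threshold when any of 3 arrays was left out. Other probe sets of Mrpl51 gave −0.25 and −0.23 at 6 h, both called, and 0.22, which was not called.

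At 24 h the increase took in nearly the whole set on the deposited scale. The 5 largest increases were those of Mrpl46 (2.07), Mrpl38 (1.90), Mrpl47 (1.52), Mrps34 (1.46) and Mrps18b (1.41). Mrpl46, a protein added in mitochondria that sits in the central protuberance of the large subunit, read 8.80, 8.82 and 8.84 in CHL arrays, against 6.97, 7.09 and 6.19 in DMSO arrays. The treated arrays lay close together and far above the solvent arrays, which spread more widely, and the difference was 4.20-fold (SE 0.17 on the log2 scale, adjusted p = 3.59e-08). Mrpl38, also of the central protuberance and the dimmest member, read 7.91, 7.58 and 7.92 in CHL and 5.67, 6.13 and 5.93 in DMSO arrays. It was 3.72-fold higher without overlap (SE 0.11, adjusted p = 1.46e-09).

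Mrpl47, the relative of bacterial L29 at the exit of the peptide tunnel, had values of 10.55, 10.31 and 10.32 in CHL arrays at 24 h, against 8.85, 8.89 and 8.86 in DMSO arrays, and was 2.88-fold higher (adjusted p = 3.72e-10). Mrps34, a mitochondrial addition to the small subunit, read 10.43, 10.02 and 9.96 in CHL and 8.78, 9.02 and 8.22 in DMSO arrays, 2.76-fold higher with no overlap (SE 0.17, adjusted p = 1.81e-06). Mrps18b, 1 of 3 relatives of bacterial S18, read 10.90, 11.04 and 10.95 in CHL and 9.66, 9.67 and 9.34 in DMSO arrays, 2.65-fold higher (SE 0.09, adjusted p = 1.41e-09). Mrps21, a relative of bacterial S21, was the member called lower at 24 h. It read 11.87, 11.72 and 11.84 in CHL and 12.03, 12.02 and 12.01 in DMSO arrays, with no overlap between the groups but a small difference of −0.21 (SE 0.06, adjusted p = 0.00829).

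The other members not called at 24 h were Mrpl13, Mrpl14, Mrpl34, Mrpl44, Mrpl51, Mrps24, Mrps27 and Mrps33. For Mrpl51 this holds for its brightest probe set only, since its other probe sets were all called higher at 24 h (0.17, 1.07 and 0.25). Mrpl13, the brightest member (mean over the arrays 13.0), read 13.06, 13.11 and 13.03 in CHL and 13.25, 13.14 and 13.06 in DMSO arrays, which overlapped (difference −0.08, adjusted p = 0.273). Mrps24, the brightest small-subunit member and the relative of bacterial S3, differed by 0.07 (adjusted p = 0.353). Mrpl34 and Mrps24 were called at no time.

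**Figure D3:**
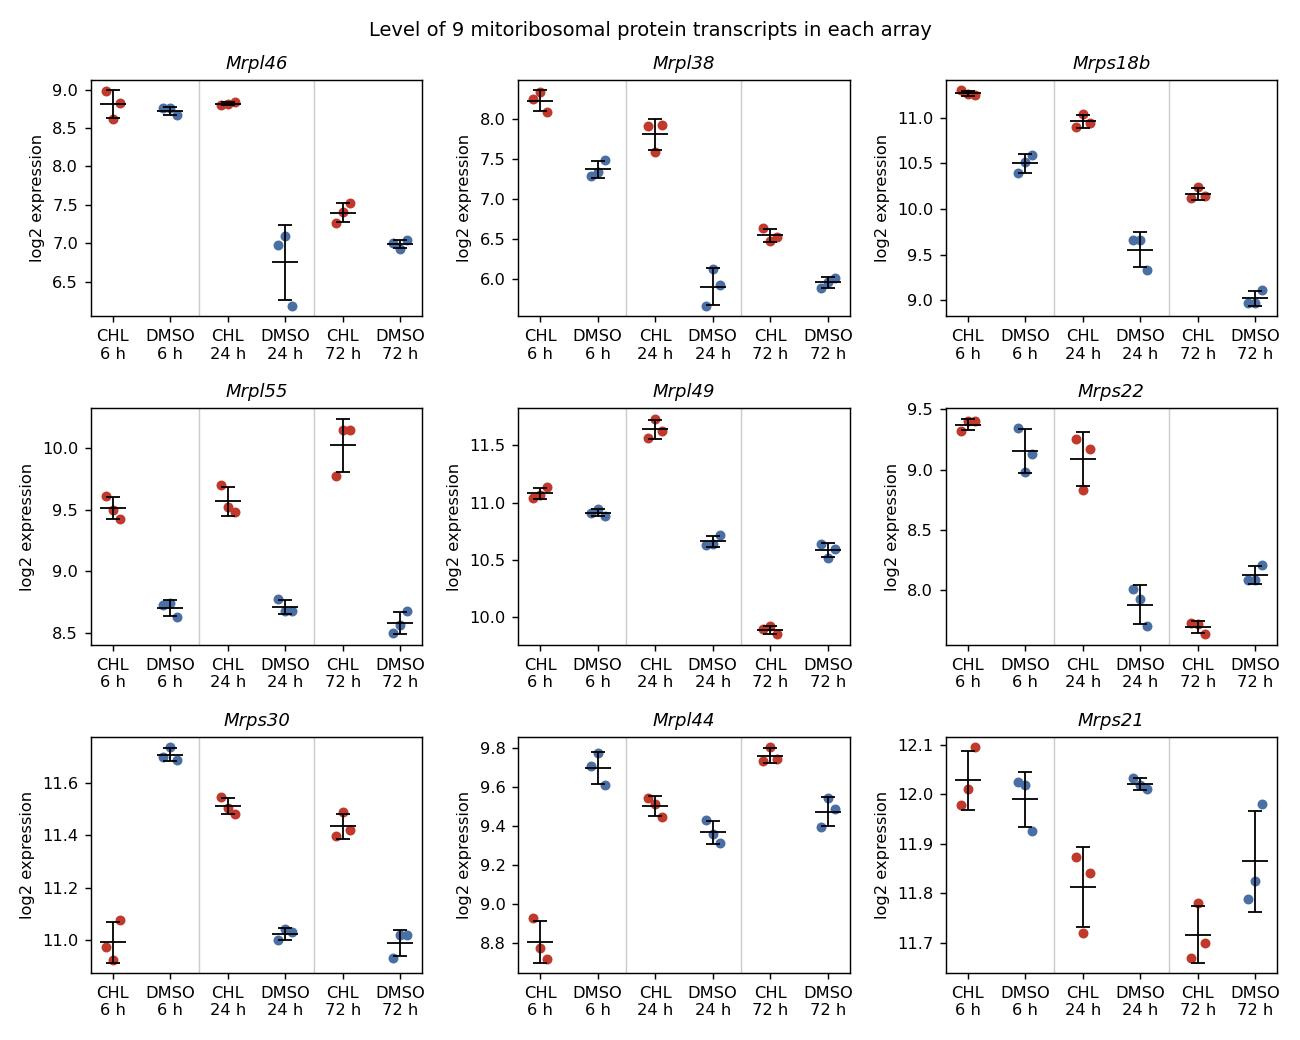
Log2 level of 9 named members in each of the 18 arrays on the deposited scale, CHL left of DMSO at each time, with the mean and SD of 3 arrays and a separate vertical axis for each gene. Mrpl46, Mrpl38 and Mrps18b are far higher in CHL at 24 h, Mrpl49 and Mrps22 lie above DMSO at 24 h and below it at 72 h, Mrps30 and Mrpl44 lie below DMSO at 6 h, and Mrps21 lies below DMSO at 24 h.

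Promoters are shown for 3 of these genes as examples of unlike responses, Mrpl46 as the largest increase at 24 h, Mrps18b as an increase at all 3 times, and Mrps21 as the decrease at 24 h. Each line runs 5′ to 3′ along the gene's strand from 250 bases before to 50 bases after the start site, from RefSeq on build GRCr8, and capitals mark matches to 4 motifs searched on both strands. The motifs were the E-box CACGTG, the ETS motif CCGGAAG (bound by GABP), and 1 motif each of NRF1 and YY1, whose letters are those of the longer capital run in Mrps18b and of the capital run in Mrpl46. No matches overlapped in any member. Mrpl46 lies at chr1:142116981-142117280 on the minus strand and holds a YY1 match, Mrps18b at chr20:2842756-2843055 on the plus strand with an E-box, an NRF1 and an ETS match, and Mrps21 at chr2:186103302-186103601 on the minus strand with an ETS match.
Mrpl46: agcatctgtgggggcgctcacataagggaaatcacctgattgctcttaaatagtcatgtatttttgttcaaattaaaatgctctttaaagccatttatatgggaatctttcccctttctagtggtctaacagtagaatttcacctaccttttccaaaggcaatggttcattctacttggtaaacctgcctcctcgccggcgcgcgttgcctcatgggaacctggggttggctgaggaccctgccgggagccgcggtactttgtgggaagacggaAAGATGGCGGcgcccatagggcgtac
Mrps18b: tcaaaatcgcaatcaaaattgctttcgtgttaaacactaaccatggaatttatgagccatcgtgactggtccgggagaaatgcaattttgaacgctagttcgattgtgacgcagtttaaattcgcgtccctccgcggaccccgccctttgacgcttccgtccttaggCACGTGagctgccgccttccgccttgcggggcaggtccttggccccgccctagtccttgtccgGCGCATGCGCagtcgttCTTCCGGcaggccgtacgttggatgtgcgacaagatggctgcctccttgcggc
Mrps21: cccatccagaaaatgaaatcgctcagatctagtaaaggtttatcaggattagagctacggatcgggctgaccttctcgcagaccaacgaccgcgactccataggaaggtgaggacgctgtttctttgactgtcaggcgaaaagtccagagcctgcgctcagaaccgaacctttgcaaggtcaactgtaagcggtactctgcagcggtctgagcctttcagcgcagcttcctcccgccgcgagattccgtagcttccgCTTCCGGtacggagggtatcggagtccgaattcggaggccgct

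The promoter table held 59 of the 73 members. An ETS match was present in 33.9% of these 59 promoters, against 20.4% of those of genes tested and 9.22% of all promoters of the same length. The shares for the YY1 motif were 10.2%, 3.16% and 1.16%, for the NRF1 motif 6.78%, 2.29% and 0.932%, and for the E-box 10.2%, 10.2% and 6.65%. Any of the 4 motifs was found in 28 of 59 (47.5%), against 16.4% of all promoters. The combined share among genes tested was not computed, and each single motif is more frequent there than in all promoters. Members with an ETS match (n = 20) had a median change of 0.29 at 6 h, 0.60 at 24 h and 0.41 at 72 h, and the 39 without one had 0.16, 0.56 and 0.29. For the E-box these medians were 0.33, 0.76 and 0.41 in 6 with and 0.17, 0.56 and 0.34 in 53 without. The NRF1 medians were 0.49, 0.51 and 0.30 in 4 with and 0.17, 0.59 and 0.36 in 55 without. The YY1 medians were 0.24, 0.55 and 0.43 in 6 with and 0.19, 0.59 and 0.34 in 53 without. The motifs thus differed in direction at 24 h. A match is a string of letters in a window and no evidence of binding.

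Of the 59 members, 18 (30.5%) have a gene in head-to-head arrangement, starting within 1000 bases upstream on the other strand, against 18.6% of genes tested. Mrpl46 is such a neighbour of Mrps11, another member, with 234 bases between the starts on chromosome 1. Mrps11, the relative of bacterial S11, read 9.70, 9.27 and 9.25 in CHL and 8.29, 8.37 and 8.25 in DMSO arrays at 24 h and was 2.15-fold higher (SE 0.12 on the log2 scale, adjusted p = 8.69e-07). Both genes were thus higher without overlap at 24 h, and neither passed the test at 6 h. Of the 14 partners tested, these 2 included, 7 were higher and 1 lower at 24 h. Of the 12 that are not members 5 were higher and 1 lower, beside 39.1% and 31.1% of all genes. The share higher was thus near that of all genes and the share lower was below it, among few genes. The partner of Mrpl47, Ndufb5 (a subunit of respiratory complex I), differed by 0.03 at 24 h (adjusted p = 0.741). Mrps11 and the partners are named after their values were seen.

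At 72 h the highest increases were those of Mrpl55 (1.44), Mrpl47 (1.25), Mrps18b (1.15), Mrpl45 (1.09) and Mrps15 (0.95). Mrpl55 read 9.77, 10.15 and 10.14 in CHL arrays, against 8.50, 8.56 and 8.68 in DMSO arrays, and was 2.72-fold higher (SE 0.10 on the log2 scale, adjusted p = 7.24e-09). Mrpl45, which lies by the tunnel exit and helps tether the ribosome to the inner membrane, read 11.17, 11.08 and 11.20 in CHL and 10.08, 10.23 and 9.86 in DMSO arrays, 2.13-fold higher (adjusted p = 6.32e-08). For both, no treated array overlapped the solvent arrays.

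Lower levels were called for 4 members at 72 h, and each of them had been called higher at 24 h. Mrpl49, a mitochondrial addition to the large subunit, read 9.89, 9.92 and 9.85 in CHL arrays, against 10.64, 10.52 and 10.59 in DMSO arrays, and was 1.62-fold lower (log2 −0.70, SE 0.06, adjusted p = 5.6e-08). At 24 h the same gene read 11.57, 11.73 and 11.63 in CHL and 10.63, 10.63 and 10.72 in DMSO arrays, 1.97-fold higher. Mrps22, a mitochondrial addition to the small subunit, stood at 7.73, 7.72 and 7.63 in CHL and 8.08, 8.08 and 8.21 in DMSO arrays at 72 h (log2 −0.43, adjusted p = 0.00338), after 9.25, 8.83 and 9.17 in CHL and 8.01, 7.93 and 7.70 in DMSO arrays at 24 h (log2 1.21, adjusted p = 1.5e-07). Mrpl36 (−0.31 at 72 h) and Mrps6 (−0.24), relatives of bacterial L36 and S6, did the same by smaller amounts. Of these 4, Mrps22 was not called at 6 h and the others were higher then.

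Read across the 3 times, 28 members (38.4%) were higher at all of them, 17 of the large and 11 of the small subunit, against 10.1% of all genes. A further 15 were called higher at 24 and 72 h but not called at 6 h, among them Mrpl3, Mrpl35 and Mrps12, against 8.53% of all genes. Called higher at 24 h and at no other time were 10, among them Mrps2, Mrps34, Mrpl10 and Mrpl41, against 5.24% of all genes. For Mrps2 this holds for its brightest probe set, since a dimmer one was also called higher at 6 h. Of the named members higher at all 3 times, Mrpl52, Mrpl58, Mrps5 and Mrps15 lost a call in 2 to 4 of the fits that left out 1 array. Across the 73 genes the changes at 6 and 24 h correlated at 0.36 (Spearman 0.32), those at 6 and 72 h at 0.39 (0.44) and those at 24 and 72 h at 0.25 (0.25). These are descriptions across genes of the same arrays, which are not independent replicates. The change at 24 h and the mean level correlated at −0.43 (Spearman −0.29), with both taken from the same arrays, but the order was not even along the scale. By level, the median change at 24 h was 0.59 in the 25 dimmest members, 0.68 in the middle 24 and 0.51 in the brightest 24.

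The course within CHL and within DMSO cells was read next, from contrasts that share the 24 h arrays with the comparison above. In CHL cells 19 members were lower and 21 higher at 24 h than at 6 h (24.9% and 34.6% of all genes), with a median of 0.04. In DMSO cells 51 were lower and 9 higher over the same interval (40% and 32.9% of all genes), with a median of −0.39. Mrpl46 read 8.80, 8.82 and 8.84 in CHL cells at 24 h after 8.98, 8.62 and 8.83 at 6 h (0.01, adjusted p = 0.962). It read 6.97, 7.09 and 6.19 in DMSO cells at 24 h after 8.76, 8.76 and 8.67 at 6 h (log2 −1.98, adjusted p = 4.66e-08).

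Between 24 and 72 h it was the CHL cells in which more members fell. In CHL cells 46 members were lower and 6 higher at 72 h (33.3% and 39.5% of all genes; median −0.32), and in DMSO cells 25 were lower and 13 higher (24.3% and 36.3% of all genes; median −0.08). Relative to the DMSO mean at 6 h, the large subunit's median stood at 0.17, 0.20 and −0.09 in CHL cells and at 0, −0.41 and −0.52 in DMSO cells at 6, 24 and 72 h. For the small subunit the values were 0.22, 0.17 and −0.26 in CHL and 0, −0.35 and −0.55 in DMSO cells. Under scaling to the poly-A controls the members' median between 6 and 24 h was −0.24 in CHL and −0.21 in DMSO cells, and between 24 and 72 h −0.13 and −0.30, so the contrast between CHL and DMSO cells in these intervals depends on the scale.

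**Figure D4:**
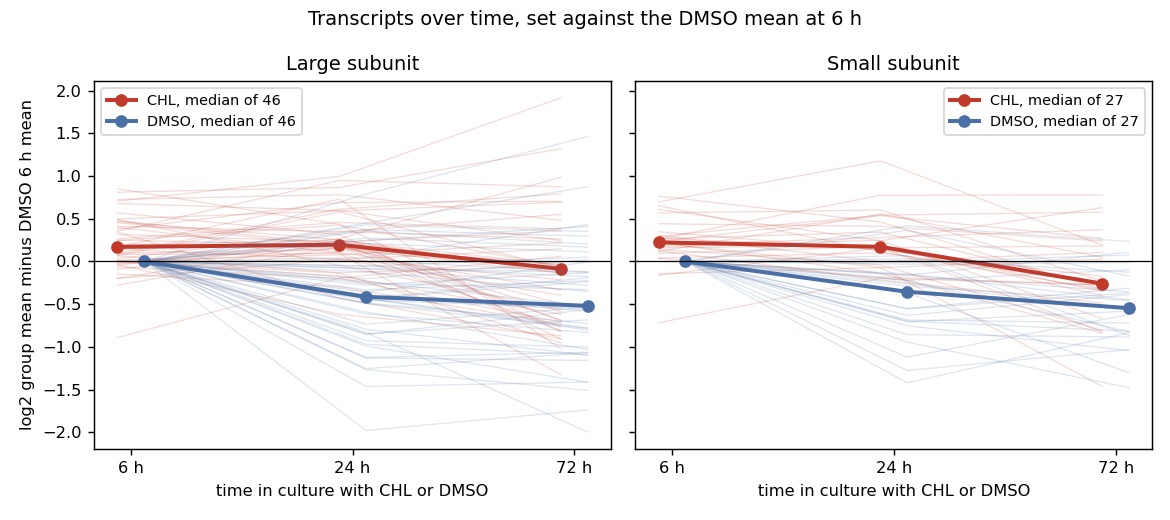
Group mean of each member minus its DMSO mean at 6 h (thin lines) and the median over the members (thick lines) for the large and the small subunit, on the deposited log2 scale with the 3 times evenly spaced. The CHL medians stay at 0.20 and 0.17 at 24 h while the DMSO medians lie at −0.41 and −0.35, and by 72 h all 4 lie below 0. On the poly-A scale the median of both CHL and DMSO cells falls between 6 and 24 h.

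The change of the treatment effect with time was tested directly. The signed log2 difference CHL minus DMSO was higher at 24 than at 6 h for 51 members and lower for 5 (39.6% and 23.4% of all genes, median 0.42). The 3 largest upward shifts were those of Mrpl46 (1.99, SE 0.24, adjusted p = 4.57e-06), Mrps2 (1.23) and Mrps30 (1.21), and the 3 largest downward shifts those of Mrps27 (−0.61), Mrpl52 (−0.50) and Mrps21 (−0.25). For Mrps30 this was a passage to 0.49 at 24 h, against −0.72 at 6 h. It was higher at 72 than at 24 h for 7 and lower for 31 (27.9% and 29.8%, median −0.22). The largest downward shifts were those of Mrpl49 (−1.68, SE 0.08, adjusted p = 6.54e-10), Mrpl46 (−1.66) and Mrps22 (−1.64), and the largest upward shifts those of Mrpl55 (0.58), Mrps23 (0.54) and Mrps27 (0.49). The call of Mrps21 for the first interval was lost in 3 of the fits that left out 1 array (−0.28 to −0.20), and that of Mrps27 for the second in 7 (0.33 to 0.68). The shift of Mrps2 belongs to its brightest probe set. Its other passing probe set, with a mean of 3.70, was called higher at 6 h (0.99) as well as at 24 h (0.79). Scaled to the poly-A controls, these medians were −0.05 for the first interval and 0.19 for the second. Both contrasts use the 24 h arrays, so an upward shift in 1 and a downward shift in the other are not independent.

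The 2 subunits gave like counts. At 6, 24 and 72 h 23, 41 and 31 of 46 large-subunit members were higher, and 3, 0 and 2 lower, with medians of 0.17, 0.60 and 0.36. At 24 h the count of large-subunit members lower was also 0 at an unadjusted limma p below 0.05. Of 27 small-subunit members 14, 23 and 18 were higher and 2, 1 and 2 lower, with medians of 0.22, 0.56 and 0.41. Placing Mrps30 and Mrps18a in the large subunit, as in the mammalian structure, gave 24, 43 and 33 of 48 and 13, 21 and 16 of 25 higher. Grouped by origin, 20, 38 and 28 of 43 members with bacterial relatives were higher (medians 0.17, 0.64 and 0.35) and 16, 25 and 20 of 29 mitochondrial additions (0.26, 0.55 and 0.36), with Mrpl55 left unassigned. All these medians are above 0 on the deposited scale, and those of the 2 subunits were below 0 on the poly-A scale.

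Members chosen by their place in the ribosome are given next. Mrpl12, the stalk protein that recruits translation factors, read 11.85, 11.72 and 11.77 in CHL and 10.77, 11.07 and 11.00 in DMSO arrays at 24 h, and was higher at all 3 times (0.34, 0.84 and 0.60). Mrpl10, which anchors it to the ribosome, changed less, by 0.23 at 24 h (adjusted p = 0.0157), with values of −0.02 and 0.02 at 6 and 72 h that were not called. Mrpl3, the relative of bacterial L3, was higher by 0.87 at 24 h and 0.45 at 72 h. Around the tunnel exit, Mrpl23 was higher by 0.49 at 6 h and 0.80 at 24 h, with 0.13 at 72 h (adjusted p = 0.312). Mrpl41, a mitochondrial addition, was higher by 0.68 at 24 h, with values of −0.09 and 0.15 at 6 and 72 h that were not called. Mrpl58, a peptidyl-tRNA hydrolase built into the large subunit, was higher at all 3 times (0.17, 0.62 and 0.31).

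In the small subunit, Mrps7 had 11.16, 11.11 and 10.97 in CHL against 9.87, 9.92 and 9.84 in DMSO arrays at 24 h and was higher at each time (0.70, 1.21 and 0.20). Mrps12, of the decoding centre, was higher by 0.46 at 24 h and 0.29 at 72 h, and Mrps5 by 0.22, 0.61 and 0.20 at the 3 times, with the calls at 6 and 72 h each lost in 4 of the fits that left out 1 array. The values of the relatives of bacterial S18 follow. Mrps18b changed by 0.77, 1.41 and 1.15 and Mrps18a by 0.44, 0.96 and 0.55, all of them called. Mrps18c, read by a probe set that may also bind related transcripts, changed by 0.12 (adjusted p = 0.55), 0.71 and 0.41. Its other passing probe set, far dimmer, was higher at 6 h (0.99) and 24 h (1.81) and gave −0.24 at 72 h, which limma did not call (adjusted p = 0.388). Mrps27, a pentatricopeptide-repeat protein, was higher at 6 h (0.65) and 72 h (0.54) and was not called at 24 h (0.04, adjusted p = 0.777). This holds for the brightest of its 3 probe sets, since the next brightest was higher at each time (0.73, 0.83 and 1.41).

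Several members had more than 1 probe set, and these did not always move alike. Of 13 genes with more than 1 passing probe set, 5 differed in their calls at 6 h and 5 at 24 h. Opposite calls were found at 72 h in 3 genes. In Mrpl52 the probe set used changed by 0.45 and the dimmer one by −1.50, in Mrps14 by 0.72 and −0.36, and in Mrpl40 by 0.51 and −0.92, the last of them from a probe set with a mean of 3.27. For Mrpl51, 3 of 4 probe sets gave 0.10, 0.11 and 0.22 at 72 h and the other gave 2.22 (adjusted p = 9.26e-11 in the fit over all passing probe sets). Both probe sets of Mrpl49 were higher at 24 h (0.98 and 1.34) and lower at 72 h (−0.70 and −0.33).

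Cytosolic ribosomal proteins and the subunits of oxidative phosphorylation served as comparison groups. The first form the cell's other ribosome, and most of the second belong to complexes that hold proteins made by mitochondrial ribosomes. The second group was chosen by symbol, and it also took in Sdha to Sdhd, Atp5if1 and Cox6c-ps1, for which this does not hold. The cytosolic group was a partial set of 18 genes, since the symbol rule left out every large-subunit symbol that ends in its number. It also took in Rps27l, which had the largest changes of the group (0.36, 0.46 and 0.44 at the 3 times). Of these 18 genes, 0 were called by limma at 6 h (1 at an unadjusted p below 0.05) and 8 were higher at 24 h. At 72 h 3 of them were higher and 1 lower, and the medians at the 3 times were 0.06, 0.12 and 0.04. Their probe sets read 14.6 to 14.8 on average, near the top of the scale. Of 73 nuclear genes of oxidative phosphorylation, 27, 35 and 45 were higher and 1, 7 and 3 lower, with medians of 0.10, 0.18 and 0.24. Among all genes tested 27.8%, 39.1% and 37.2% were higher at the 3 times and 31.8%, 31.1% and 27% lower. At 24 h the mitoribosomal members' median of 0.58 was thus above both, but the groups differ in level and no test between them was made.

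**Figure D5:**
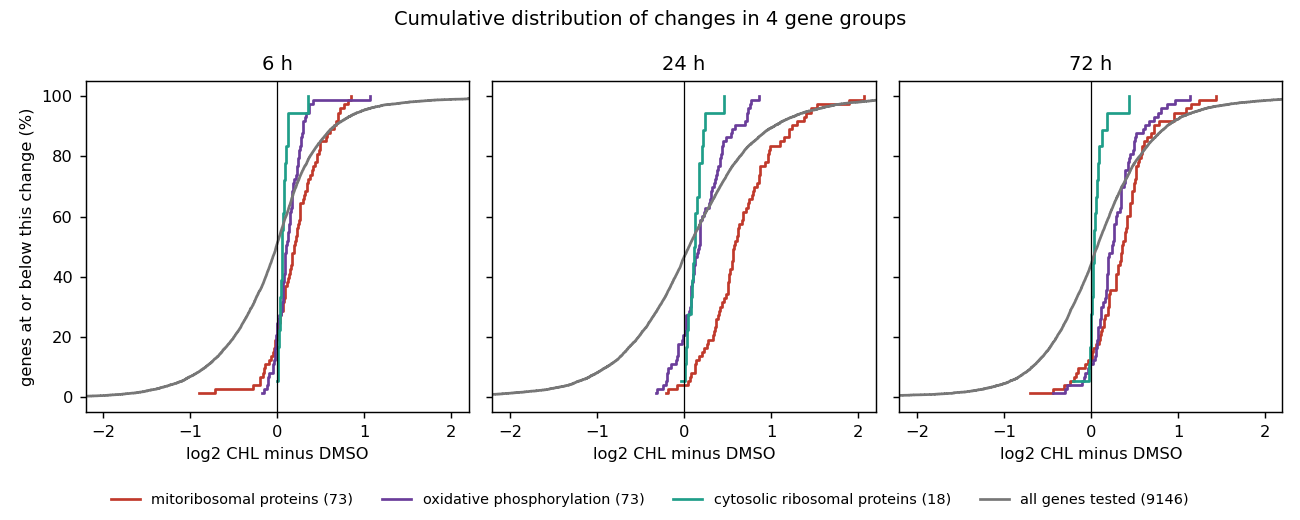
Cumulative share of genes (vertical axis, percent) at or below each log2 change, CHL minus DMSO, at 6, 24 and 72 h. Curves are given for the 73 members, 73 oxidative phosphorylation genes, a partial set of 18 cytosolic ribosomal protein genes and all 9146 genes. Changes are on the deposited scale, and those beyond ±2.2 are not shown. At 24 h the members' curve lies to the right, with a median of 0.58 against 0.18, 0.12 and 0.06. On the poly-A scale all 4 curves would shift left by the same amount, placing the members' median at −0.48.

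Other genes that make, feed or use the mitochondrial ribosome were read from fixed lists. Every count of these lists is to be read beside the shares of all genes called at 6, 24 and 72 h. Those were 27.8%, 39.1% and 37.2% higher and 31.8%, 31.1% and 27% lower. Of 6 symbols listed for mitoribosomal proteins that carry other names, 5 matched a measured gene, and all 5 were higher at 6 h and at 24 h. Ptcd3 changed by 0.18, 0.74 and 0.12 at the 3 times, Gadd45gip1 by 0.16, 0.56 and 0.19, and Chchd1 by 0.27, 0.53 and 0.79, with the value of Ptcd3 at 72 h not called. At 72 h 2 were higher and 1 lower. Aurkaip1 was the lower one, at −0.14 (adjusted p = 0.039).

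Of 14 translation factors measured from 17 listed, 3, 7 and 9 were higher at the 3 times and 0, 1 and 2 lower (all genes 27.8%, 39.1% and 37.2%, and 31.8%, 31.1% and 27%). The elongation factors Tufm and Gfm1 were higher by 0.93 and 0.88 at 24 h, and the inner-membrane protein Letm1 by 0.79. Gfm1 (−0.15) and Letm1 (−0.30) were the 2 lower at 72 h, but in 15 of the fits that left out 1 array only 1 factor was called lower then. Among 26 assembly and ribosomal RNA factors matched from 29 symbols listed, 6 were higher and 11 lower at 6 h, 20 higher and 2 lower at 24 h, and 19 higher at 72 h. Fastkd2, an RNA-binding protein of mitochondrial RNA granules, changed by 0.02, 1.74 and 0.91, Mterf4, which acts in large-subunit assembly, by −0.05, 0.97 and 0.44, and Mpv17l2 by −0.22, 0.62 and 0.74. The helicase Ddx28, named after its values were seen, was lower at 6 h (−1.59) and higher at 24 h (1.01).

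Aminoacyl-tRNA synthetases of mitochondria moved in both directions, with 3, 5 and 3 of 11 measured (17 listed) higher and 4, 2 and 2 lower. All genes did so too, with 27.8%, 39.1% and 37.2% higher and 31.8%, 31.1% and 27% lower. Hars2 was higher by 0.29, 1.10 and 0.94, Tars2 by 0.95, 0.84 and 0.70, and Yars2 was lower at 6 h (−0.26), higher at 24 h (0.76) and lower at 72 h (−0.27). For mitochondrial DNA maintenance and transcription, 6, 11 and 4 of 14 measured from 15 listed were higher and 2, 1 and 1 lower. Elac2, which trims the 3′ ends of tRNA precursors, was higher by 0.35, 2.40 and 0.81, the DNA helicase Twnk by 1.84 at 24 h and Trmt10c, a subunit of mitochondrial RNase P, by 0.79 at 24 h.

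Among 7 measured regulators of mitochondrial biogenesis of 9 listed, 2, 5 and 1 were higher and 2, 1 and 2 lower. The coactivator Pprc1 was higher by 0.85 and Yy1 by 0.43 at 24 h, and Myc was higher at each time (1.17, 1.48 and 0.47). The 1 call of a higher level at 72 h in this list, that of Myc, was lost in 12 of the fits that left out 1 array. The transcription factor Nrf1 was lower at 6 and 72 h (−0.62 and −0.61) and Gabpa at all 3 times (−0.46, −0.45 and −0.81). These 2 are named after their values were seen. Of 15 import and chaperone genes of 16 listed, 11, 15 and 12 were higher. The chaperone Hspa9 was higher by 0.33, 1.52 and 0.60, Hspe1 by 0.17, 1.02 and 0.45, and the import channel component Timm17a by 0.16, 0.93 and 0.53. All counts of these lists are on the deposited scale, where 27.8%, 39.1% and 37.2% of all genes were higher and 31.8%, 31.1% and 27% lower. After scaling to the poly-A controls, 0 import and chaperone genes passed limma's test as higher at any time and 0, 3 and 0 of 15 as lower, against 36.7%, 67.1% and 35.5% of all genes.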

How the data were processed

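RNA of 18 cultures was hybridised to Affymetrix rat arrays. The authors deposited a log2 value for each of 31099 probe sets. Per the submitters' processing notes these come from GCRMA, whose version was not given in the sources read. The deposited values were used as they stand. Of the probe sets, 20832 had 1 platform symbol, 436 several and 9831 none. The brightest probe set per gene above log2 4 in 3 or more arrays was kept (9146 genes). Group means of all 18 arrays were fitted with limma 3.58.1 in R 4.3.3 (lmFit, eBayes, 12 residual degrees of freedom), with Benjamini-Hochberg adjustment over all 9146 genes and a threshold of 0.05. The fit was tested on simulated data, where it missed part of the smaller changes and, at 72 h, the share of false calls lay above the threshold.

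Members and gene lists were chosen with earlier results of these data known. Named were, per time, the 5 highest and 5 lowest called members without overlap, those called against the majority, the brightest and dimmest 3, a fixed set of 20 by role (Mrpl11 and Mrps36 were not measured), those whose probe sets disagreed, the 3 highest and 3 lowest per time contrast, and 3 genes of each list by smallest p at 24 h. Alternatives were other scalings, filters, probe set choices and weights, a replicate block, and leaving out each array. The number of arrays limits the precision.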

Additional observations from a re-analysis of the deposited data

Results flagged for a closer look

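Members are given here because the treatment effect (CHL minus DMSO, log2) differed between times by limma's test of the difference over all genes. From 6 to 24 h the difference was 1.99 for Mrpl46 (adjusted p = 4.57e-06), 1.23 for Mrps2 (8.12e-05) and 1.21 for Mrps30 (7.81e-09). It was −0.61 for Mrps27 (adjusted p = 0.00954), −0.50 for Mrpl52 (0.000894) and −0.25 for Mrps21 (0.0255). From 24 to 72 h it was 0.58 for Mrpl55 (adjusted p = 0.00174), 0.54 for Mrps23 (0.000382) and 0.49 for Mrps27 (0.0326). The calls of Mrps21 in the first interval and Mrps27 in the second were lost in 3 and 7 of the fits that left out 1 array, and the values of Mrps27 belong to 1 of its 3 probe sets. A dimmer passing probe set of Mrps2 was called higher at 6 h (0.99) as well as at 24 h (0.79). Downward from 24 to 72 h, the difference was −1.68 for Mrpl49 (adjusted p = 6.54e-10), −1.66 for Mrpl46 (3.05e-05) and −1.64 for Mrps22 (6.22e-07).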

How the results depend on the processing

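Scaling to the poly-A controls changed most. The median change of all, large and small members was then −0.41, −0.43 and −0.37 at 6 h, −0.48, −0.46 and −0.50 at 24 h, and −0.29, −0.30 and −0.25 at 72 h, and −0.041 for all at 24 h without DMSO replicate 1, an alternative chosen after seeing the data. Beside the share of all genes on that scale, members called were 0 higher at 6 h (2.53%), 2 higher (2.79%) and 17 lower (67.1%) at 24 h, and 1 higher (3.41%) and 7 lower (35.5%) at 72 h. For the difference of effects they were 1 higher (2.68%) and 0 lower (13.1%) from 6 to 24 h, and 0 (13.3%) and 2 (2.26%) from 24 to 72 h. In CHL cells they were 0 (5.5%) and 1 (10.8%), then 2 (23.2%) and 8 (8.8%), and in DMSO cells 1 (20.3%) and 10 (12.2%), then 0 (4.79%) and 3 (9.84%). The poly-A controls vary between replicates, which widens the spread by construction. Relative to the all-gene median, Mrps27 at 24 h (−0.012), Mrpl10 (−0.055) and Mrps2 (−0.048) at 72 h turned.

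Centring on the array median gave medians of 0.16, 0.14 and 0.19 at 6 h and 0.64, 0.67 and 0.63 at 24 h for all, large and small members, 0 lower at 24 h, 2 with a lower signed effect at 24 than at 6 h, and 0.014 for Mrps24 at 72 h. Quantile normalization gave 2 lower at 24 h and turned Mrpl10 (0.028), Mrpl13 (−0.043), Mrpl18 (−0.029), Mrpl34 (0.027), Mrps12 (−0.00994) and Mrps21 (−0.036) at 6 h and Mrps24 (−0.00308) at 24 h. Without probe sets that can bind related transcripts, large minus small was −0.079, −0.044 and 0.00924 at the 3 times, the small median at 72 h 0.34, and Mrps18c at 72 h −0.24. The mean of passing probe sets gave a median of 0.23 for all and 0.27 for small members and large minus small of −0.073 at 6 h, a small median of 0.33 at 72 h, Mrpl10 0.022, Mrpl40 −0.53 and Mrps24 −0.11 at 6 h, Mrps24 −0.11 at 24 h, and Mrpl40 −0.20 and Mrpl52 −0.52 at 72 h. Array weights gave a small median of 0.24 and Mrpl13 −0.020 at 6 h, and 12 higher signed effects from 24 to 72 h, against 4 with the compared groups alone. By structure, large minus small was −0.077 at 6 h and the small median 0.34 at 72 h. The cause was not tested in these cases.

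With the replicate number as a block, 35 members were higher and 6 lower at 6 h, 64 and 1 at 24 h, 50 and 5 at 72 h, and 3 instead of 5 had a lower signed effect at 24 than at 6 h. Deviations from the group means correlated at −0.04 to 0.31 between CHL and DMSO arrays of the same time and number. Between arrays of the same time and unlike number they correlated at −0.225 to 0.213. These ranges overlap, and the numbers were not taken to pair cultures.

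Leaving out 1 array in turn gave 3 to 6 members lower and an overall median of 0.18 to 0.21 at 6 h, a large median of 0.54 to 0.63 at 24 h, a small median of 0.33 to 0.44 at 72 h, 3 to 6 lower signed effects from 6 to 24 h, and 4 to 12 higher ones from 24 to 72 h. At 6 h the ranges that crossed 0 were −0.0034 to 0.18 for Mrpl46, −0.020 to 0.088 for Mrps12, −0.048 to 0.027 for Mrpl10, −0.11 to 0.031 for Mrpl34, −0.028 to 0.31 for Mrps18c and −0.033 to 0.070 for Mrpl13. They were −0.010 to 0.087 for Mrps27 at 24 h, and −0.036 to 0.103 for Mrpl10 and −0.10 to 0.129 for Mrps2 at 72 h. None of these 9 changes was called with all arrays. The call of Mrpl46 at 72 h was lost in 12 of these fits, those of Mrpl52 at 24 h and Mrps18c at 72 h in 4 each, those of Mrps15 at 6 h and Mrps17 at 24 h in 3 each, those of Mrpl49 and Mrpl58 at 6 h and Mrpl13 at 72 h in 2 each, and that of Mrpl10 at 24 h in 1.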
